A study of Rattus norvegicus with 3 samples.

Results

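In all, 9 genes of the Polycomb repressive complexes were examined for chromatin immunoprecipitation and sequencing (ChIP-seq) peaks of Seh1, a subunit of the nuclear pore complex: Ezh1, Ezh2, Eed, Suz12, Jarid2, Cbx2, Cbx8, Bmi1 and Ring1. They were taken as those rows of the authors' annotated peak table whose nearest gene was one of them, which gave 5 of 9084 annotated peaks. For Ezh2, every peak on chromosome 4 within 500 kb of its peak was added, which gave 7 peaks of oligodendrocyte progenitor cells (OPC) and 0 peaks of immature oligodendrocytes (iOL). The set was chosen by the peak scores and nearest genes of these data, above all the high score at Ezh2, so its score, rank and position are given as a description with no test.

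The cells were cultured from the forebrain of Sprague Dawley rats at postnatal day 1 to 2. OPC were kept with PDGF-AA, CNTF, bFGF and NT3; iOL had 1 day of triiodothyronine (T3) at 60 nM, the thyroid hormone that drives their differentiation, with PDGF-AA, bFGF and NT3 removed. One Seh1 library per stage was used, with 9117 peaks in OPC and 6704 in iOL on rat build rn6; an IgG library of iOL was not analysed here. No stage had replicates, depth was unknown, and a peak in OPC without one in iOL is a difference between 2 lists, not a shown difference between stages.

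Polycomb proteins keep developmental genes silent in 2 complexes. In PRC2, Ezh2 or its paralogue Ezh1 methylates lysine 27 of histone H3, Eed and Suz12 are needed for that activity, and Jarid2 helps to recruit the complex. In PRC1, Ring1 is a ubiquitin ligase for histone H2A, Bmi1 is its partner subunit, and chromobox proteins such as Cbx2 and Cbx8 read the mark that PRC2 writes. In the oligodendrocyte lineage Ezh2 is known for holding neuronal and astrocyte programmes in check.

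Seh1 peaks of OPC were nearest to 3 of the 9 genes: Ezh2 with 1 peak, Cbx2 with 1 and Cbx8 with 3. The peak of Ezh2 lay far from the gene and was among the strongest of the list, while the Cbx2 peak lay at the promoter with an ordinary score. Ezh1, Eed, Bmi1, Ring1, Suz12 and Jarid2 were nearest to none. The first 4 of these carry a RefSeq accession as old as those in the table. Suz12 and Jarid2 carry only accessions numbered above the highest in the table, so the annotation may not have held them and their lack of a peak cannot be read. Among the 7 genes that the table could name, 3 had a peak (42.9%), beside 34.3% of 16332 coding genes, or 33.2% of 16063 counted by accession alone. No peak was annotated to a transcript of these 7 genes other than the Cbx2 promoter peak.

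The Ezh2 peak (chr4:77401233-77401437, rn6, 205 bp) was classed as intergenic and, in the finer annotation, as a CpG island. It lay 54.3 kb upstream of the transcription start site (TSS) of Ezh2 and had a score of 100.2, as the authors' deposited table gives it without a definition. That was rank 4 of 9084 and 13.1 times the median score of 7.66. It was 1 of 10 annotated peaks with a score of 50 or more (0.11% of peaks). Rank 1, with a score of 197.3, was its neighbour 46.6 kb away (chr4:77447846-77448050), 41.6 kb downstream of the TSS of Pdia4, which helps secreted proteins to fold.

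The signed distances place both peaks in the same space between genes. They fit only a minus strand for Ezh2 and for Pdia4, with TSS positions of 77347011 and 77489535 in rn6. Both peaks therefore lay in the 142.5 kb between these starts, the Ezh2 peak 88.2 kb from the Pdia4 start and the Pdia4 peak 100.9 kb from the Ezh2 start. The RefSeq gene table of a later assembly, GRCr8, lists 0 genes between Ezh2 and Pdia4. It also places their starts farther apart than rn6 does. The part of this difference between builds in the 2 scores and the distances was not tested. The peak therefore carries the name Ezh2 by distance alone, and no file ties it to the gene's activity.

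The other 5 OPC peaks of the window had ordinary scores. A peak near Cul1, the scaffold of SCF ubiquitin ligases, had a score of 7.66 at 161.6 kb upstream of the TSS. Zfp282, a zinc finger gene, had one of 7.66 in its first exon, 174 bp downstream of the TSS, and the zinc finger gene Zfp956 had one of 9.58 at 20.4 kb upstream. Zfp746, a zinc finger gene too, had 2 peaks of 7.66, at 7.90 and 139.1 kb upstream, both in repeats. Within 500 kb, 6 other OPC peaks surrounded the Ezh2 peak, beside a median of 5 over all OPC peaks. The window was thus near the usual number of peaks and held 2 scores far above the rest.

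No iOL peak lay within 500 kb of the Ezh2 peak, as was the case for 9.27% of OPC peaks; the median OPC peak had 3. The nearest iOL peak stood just outside, 528.4 kb towards lower coordinates (chr4:76872672-76872880), and overlapped by 7 bp an OPC peak with a score of 8.94 whose nearest gene was Cul1. On the other side the nearest iOL peak was 722.1 kb away (chr4:78123529-78123737). Beyond the window on that side, the next OPC peak lay in exon 52 of Sspo (score 7.66), 705.3 kb from the Ezh2 peak. The plot of the window shows the tall pair in a stretch without iOL peaks. Background in OPC was not measured, since the IgG library is of iOL, and its part in these scores was not tested. The authors' label of the annotated OPC peaks names IgG of iOL beside Seh1 of OPC. The role of that IgG library in the peak calls is not stated.

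**Figure D1:**
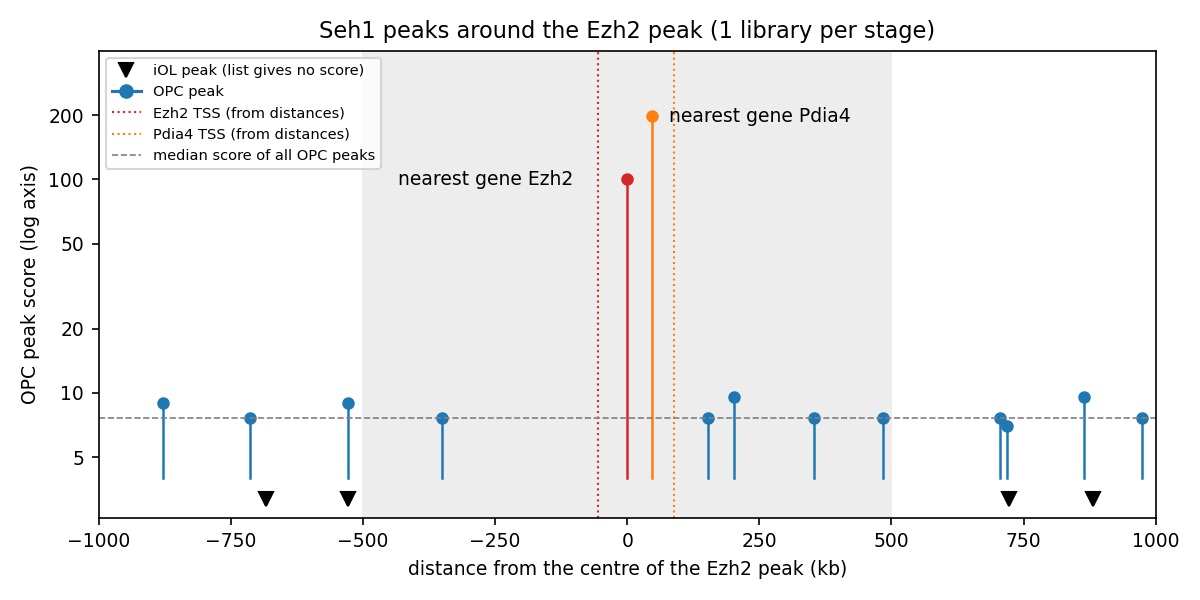
OPC peaks (stems, score on a log axis) and iOL peaks (triangles, without scores) by distance in kb from the centre of the Ezh2 peak; the grey band is 500 kb to each side. The Ezh2 peak at 100.2 and the Pdia4 peak at 197.3 stand above 5 other peaks of 7.66 to 9.58, and 0 iOL peaks fall in the band.

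Both strong peaks were less focused than the other 8 of the 10 highest peaks. The focus ratio, a fraction that the authors' caller reports per peak, was 0.702 for the Ezh2 peak and 0.639 for the Pdia4 peak, beside a median of 0.778 over all annotated peaks. Those 8, all at copies of the small RNAs 7SL and 7SK, had ratios of 0.888 to 0.963, and all 8 overlapped an iOL peak. Of 40 peaks with a score of 20 or more, 4 had a ratio at or below that of the Ezh2 peak, itself and the Pdia4 peak included. The scale of the scores moves in steps of 0.638, of which the Ezh2 peak held 157 and the median peak 12.

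**Figure D2:**
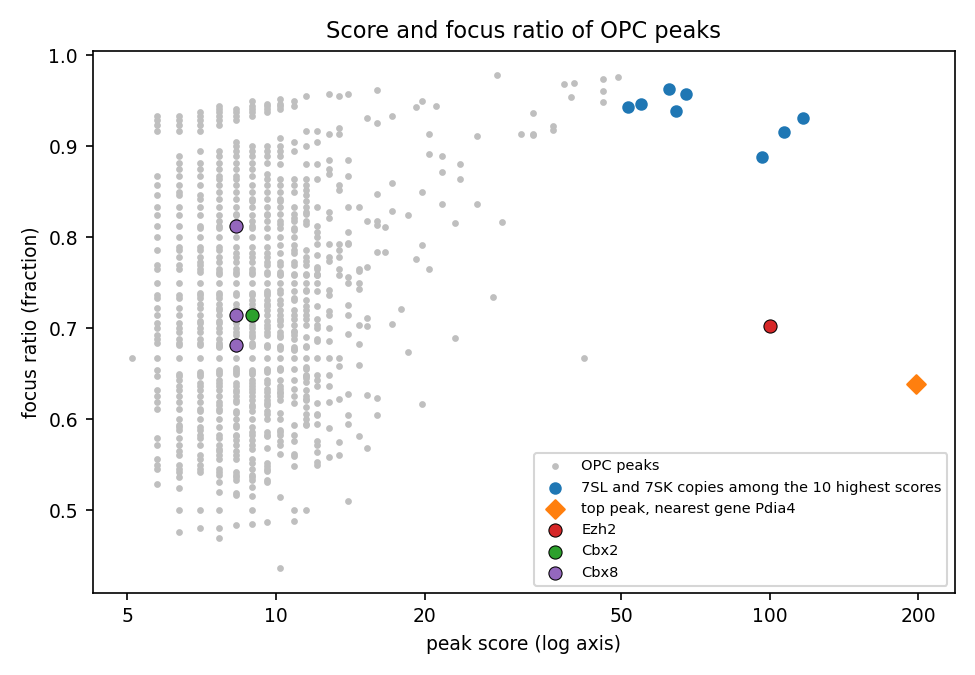
Focus ratio (fraction) against score (log axis) for annotated OPC peaks, with the peaks of Ezh2, Cbx2 and Cbx8, the Pdia4 peak and the 8 peaks at 7SL and 7SK copies marked. The Ezh2 and Pdia4 peaks lie at 0.702 and 0.639, under the 8 small RNA peaks of 0.888 to 0.963, while Cbx2 and Cbx8 lie within the cloud of ordinary scores.

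Cbx2 and Cbx8, neighbouring chromobox genes of PRC1, held the other 4 peaks within 110.1 kb of chromosome 10. The Cbx2 peak (chr10:108131724-108131928) was in the promoter class, centred 279 bp upstream of the TSS, with a score of 8.94; 83.8% of annotated peaks scored lower. Of all annotated peaks 4.02% were in that class, and 5.06% of coding genes had a peak within 1 kb of a TSS. Its focus ratio was 0.714. It was the only one of the 5 peaks to lie at a promoter of its gene.

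The 3 peaks nearest to Cbx8 had the same score of 8.3, above 72.4% of annotated peaks. One lay 5.28 kb downstream of the TSS (chr10:108145128-108145332, focus ratio 0.812), in the stretch between Cbx2 and Cbx8. Another, in a CpG island, lay 40.7 kb upstream (chr10:108191141-108191345, 0.714) and the last 91.2 kb upstream (chr10:108241617-108241821, 0.682). Having 3 or more peaks was the case for 4.39% of coding genes. All 3 distances agree on a TSS at 108150511 on the minus strand.

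The table classes these 3 peaks as intron 1 of a transcript of Ccdc40, a gene of motile cilia. The distances of 2 other peaks put the start of that transcript at 108055270, which is 76.6 kb below the Cbx2 peak, so in rn6 its first intron spans Cbx2 and Cbx8. In GRCr8, Ccdc40 is listed beyond Cbx8 and Tbc1d16 instead. Tbc1d16 carries only accessions newer than the table, and whether the annotation held it is unknown. The peaks at 40.7 and 91.2 kb are tied to Cbx8 by this annotation only.

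None of the 4 Cbx2 and Cbx8 peaks overlapped an iOL peak, and 0 of all 5 did, beside 1.73% of annotated OPC peaks. Unlike the Ezh2 peak, they had iOL peaks around them. One iOL peak (chr10:108200989-108201197) lay inside the span, 9.64 kb from the CpG island peak of Cbx8. The gaps to the nearest iOL peak were 69.1 kb for the Cbx2 peak and 55.7 and 40.4 kb for the other Cbx8 peaks, beside a median of 88.3 kb over annotated OPC peaks. Each had 6 or 7 iOL peaks within 500 kb.

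**Figure D3:**
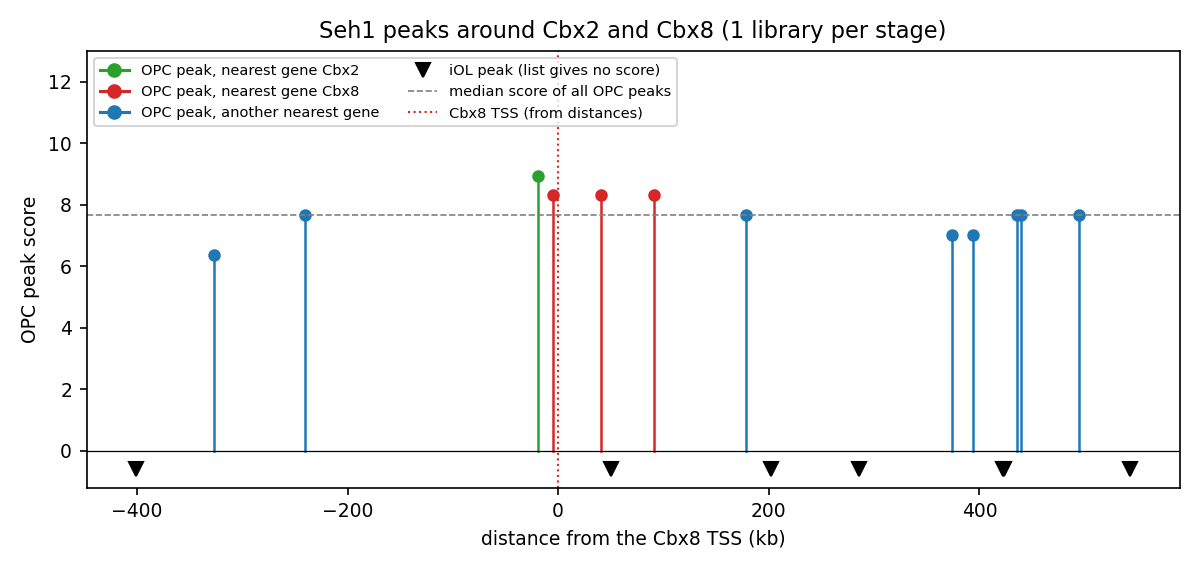
OPC peaks (stems, score) and iOL peaks (triangles, without scores) by distance in kb from the Cbx8 TSS. The Cbx2 peak at 8.94 and the 3 Cbx8 peaks at 8.3 lie above the dashed median of 7.66, the other OPC peaks at or below it, and 1 iOL peak falls among the 4.

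All 5 peaks scored above the median, as did 27.6% of annotated peaks, and 0 of 5 lay in an annotated repeat. CpG islands held 2 of the 5, beside 5.37% of annotated peaks, a label given only between genes and in introns. The 2 were the Ezh2 peak, with the highest score of the 5 at 100.2, and a Cbx8 peak at 8.3. That score was shared by all Cbx8 peaks and was the lowest of the 5.

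For the genes without a peak, rn6 positions were not at hand, so peaks of their neighbours in GRCr8 gene order are given. A neighbour here is the next coding gene on each side that the table could name. Other genes in between were passed over. Bmi1 stood between Commd3, with a peak at its transcription end 4.06 kb downstream of its TSS (chr17:85359997-85360201, score 7.66), and Spag6, with a peak 7.95 kb upstream (chr17:85374265-85374469, score 7.02). These peaks were 14.1 kb apart. Ezh1 had on one side Ramp2, a receptor accessory gene with an intron peak 253 bp from its TSS (chr10:89167334-89167538, score 8.3), and on the other Cntnap1 with none. For Eed both neighbours, Hikeshi and Picalm, had none, nor had Hsd17b8 and RT1-A3 beside Ring1.

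For the 2 genes that the table may not name, a peak could appear under a neighbour. Beside Suz12, Rab11fip4 had 1 peak in its own intron 3 at 46.5 kb (score 8.3) and Crlf3 none. Beside Jarid2, Dtnbp1 had 1 intergenic peak at 393.7 kb (chr17:20483706-20483910) and Cd83 1 at 105.0 kb (chr17:24521551-24521755). Each had a score of 7.02 and lay downstream of the named TSS. These positions are far apart in rn6, so at most 1 of these 2 peaks could lie within Jarid2. The files do not say whether it does, nor whether the Rab11fip4 peak lies within Suz12.

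A wider list of 59 Polycomb genes, the 9 included, put these counts beside the rest of the machinery. The table could name 43 of them, and 20 of those had an OPC peak (46.5%, beside 34.3% of coding genes). A peak within 50 kb of a TSS was found for 12 (27.9%, beside 25.1%) and within 1 kb for 6 (14.0%, beside 5.06%). Of the 43 genes, Aebp2, Scml4 and Rybp counted as nameable only because they had a peak. By accession alone 17 of 40 genes had a peak (42.5%, beside 33.2%), 12 within 50 kb (30.0%, beside 24.3%) and 6 within 1 kb (15.0%, beside 4.94%). Counted without the 9, 17 of 36 had a peak, beside 34.3% of coding genes. These counts again include Aebp2, Scml4 and Rybp, nameable only through their peaks. The 31 peaks of the list ranged in score from 6.38 to 9.58 apart from Ezh2, with a median of 7.66, that of all annotated peaks.

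By role, canonical PRC1 (chromobox, polyhomeotic and Scm genes) had a peak in 8 of 9 nameable genes, of which 4 lay within 1 kb. The 8 include the neighbours Cbx2 and Cbx8 and the neighbours Cbx6 and Cbx7. Over all coding genes, 34.3% had a peak and 5.06% had one within 1 kb. The catalytic and Pcgf subunits of PRC1 had one in 3 of 7 genes, with 2 within 1 kb. PRC2 core genes had one in 1 of 5, Ezh2 alone, and PRC2 accessory genes in 2 of 5. Variant PRC1 had one in 4 of 10, the PR-DUB and PhoRC genes in 2 of 6, and the demethylases of lysine 27 in 0 of 1. By accession alone these counts were 7 of 8 for canonical PRC1, 1 of 4 for PRC2 accessory genes and 3 of 9 for variant PRC1. The groups are small, and their differences were not tested.

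All 4 chromobox genes that the table could name, Cbx2, Cbx6, Cbx7 and Cbx8, had a peak, and Cbx2, Cbx6 and Cbx7 had one within 1 kb. Cbx6 and Cbx7, both readers of the PRC2 mark and neighbours on chromosome 7, held 4 peaks within 113.0 kb. Each of these had 16 other OPC peaks within 500 kb, and each Cbx2 and Cbx8 peak had 10 or 11, beside the median of 5 over all OPC peaks. The Cbx6 peak was in an intronic CpG island 117 bp from the TSS (chr7:121057810-121058014, score 6.38). The Cbx7 peak was in exon 1 at 230 bp (chr7:121153051-121153255, score 9.58). The second peaks of Cbx6 and Cbx7 lay 10.9 and 17.4 kb upstream, and 1 iOL peak fell inside this span too.

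Other starts with a peak were those of Phc1, a polyhomeotic subunit (103 bp, score 7.66), Pcgf6, a Bmi1 paralogue of a variant complex (exon 1 at 181 bp, score 8.3), and Pcgf3, another such paralogue (promoter, 169 bp upstream, score 7.02). Further out came Epop, a PRC2 accessory gene (4.15 kb), Foxk1, a forkhead partner of PR-DUB (9.47 kb upstream), E2f6, a repressor of variant PRC1 (10.7 kb upstream), Kdm2b, which brings variant PRC1 to CpG islands (11.3 kb upstream), and Phc2 (43.5 kb upstream). Of the 31 peaks 1 overlapped an iOL peak, a CpG island peak 84.3 kb from the TSS of Bcor, a corepressor of variant PRC1 (chrX:11733142-11733346, score 7.02). CpG islands held 7 of the 31 (22.6%, beside 5.37%).

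**Figure D4:**
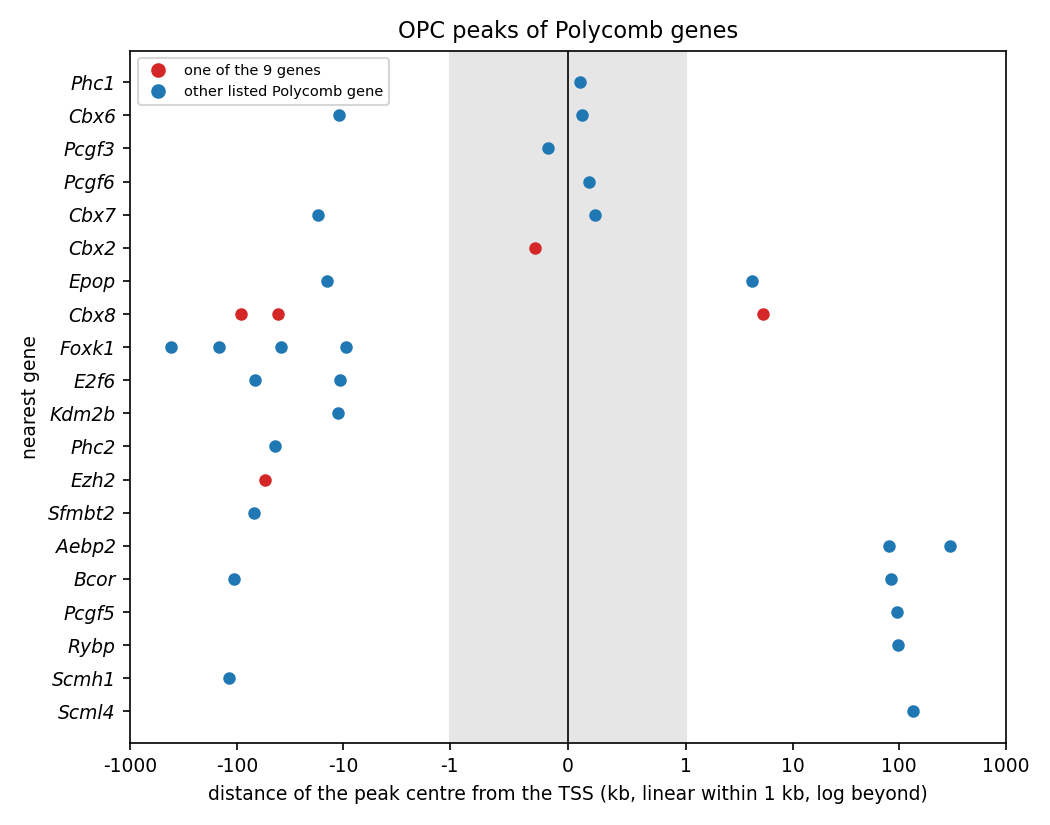
Distance of each OPC peak from the TSS of its nearest gene (kb, linear within 1 kb and log beyond) for the 20 listed Polycomb genes with a peak, the closest at the top. Phc1, Cbx6, Pcgf3, Pcgf6, Cbx7 and Cbx2 lie in the grey band of 1 kb, while Ezh2 lies at -54.3 kb.

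A further 6 peaks lay inside transcripts of listed genes but were nearest to another gene. Kdm2b had 3 of these, in intron 23 of 31, in exon 25 of 32 and at its transcription end, with scores of 8.94, 8.3 and 5.75. Phc1 had 1 in exon 10 of 15 (7.66), Yaf2, the Rybp paralogue, 1 in intron 3 of 4 (8.3) and Sfmbt1, a PhoRC gene, 1 in intron 2 of 20 (7.66). Counting them raised the listed genes with a peak from 20 to 22, adding Yaf2 and Sfmbt1.

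Promoters of these genes were rich in CpG. RefSeq promoters on GRCr8, from 250 bases before to 50 after a gene's start, were at hand for 7 of the 9 genes, all but Ezh1 and Cbx2. Their CpG content, observed over expected from base composition, had a median of 0.925 beside 0.549 over 19005 coding promoters, and 7 of 7 reached 0.6, beside 46.5%. Values were 0.957 for Ezh2, 0.925 for Cbx8, 0.697 for Eed and 1.00 for Suz12. Genes with and without a peak both stood high: Ring1, without a peak, was at 0.961. Promoters of coding genes with an OPC peak within 1 kb had a median of 0.821 (659 promoters). The E-box CAGCTG, a palindrome searched in the same windows because the series title names the E-box factor Olig2, occurred in 2 of 7, Jarid2 and Ring1, beside 15.3% of coding promoters.

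**Figure D5:**
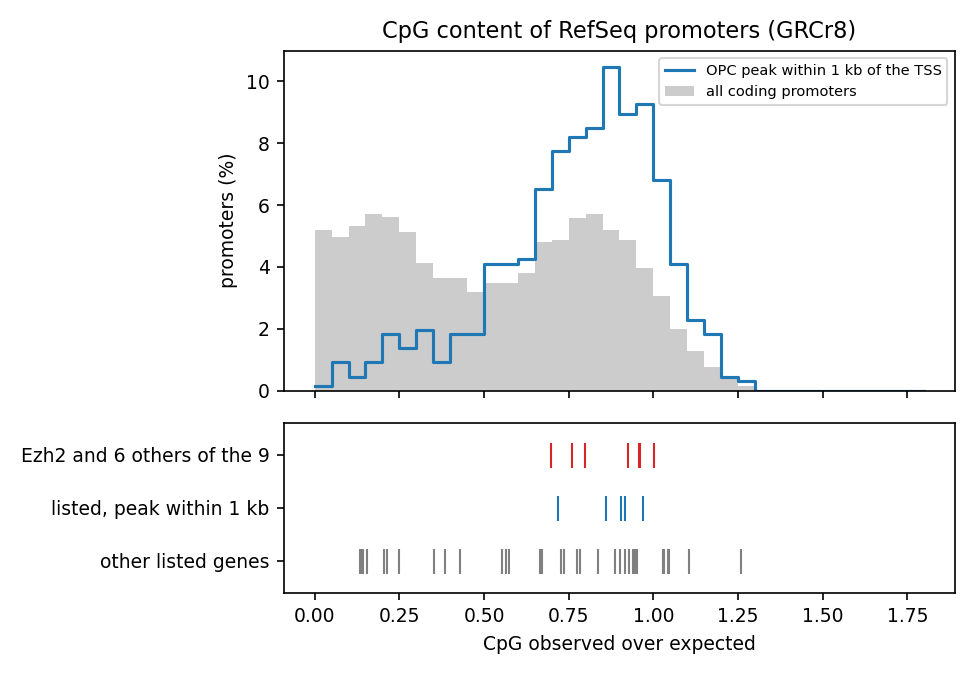
Share of coding promoters (%) by CpG observed over expected, for all 19005 (grey) and for the 659 with an OPC peak within 1 kb of a TSS (line); ticks below mark single listed genes. Ezh2 and 6 others of the 9 genes lie between 0.697 and 1.00, as do the 5 listed promoters with a peak within 1 kb.

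The sequences shown are the 250 bases before the start of 3 listed genes whose peaks lay closest to the start, with CpG in capitals, 5′ to 3′ on the gene's strand. The Pcgf3 peak covered 271 to 67 bp upstream of its rn6 start, while the peaks of Phc1 and Cbx6 began 1 and 15 bp downstream. Starts of GRCr8 and rn6 may refer to different transcripts. The windows are chr14:1436710-1436959 (Pcgf3), chr4:157204561-157204810 (Phc1) and chr7:113263414-113263663 (Cbx6), GRCr8, minus strand. They hold 20, 38 and 36 CpG with a GC share of 67.6, 83.2 and 74.8%.
Pcgf3: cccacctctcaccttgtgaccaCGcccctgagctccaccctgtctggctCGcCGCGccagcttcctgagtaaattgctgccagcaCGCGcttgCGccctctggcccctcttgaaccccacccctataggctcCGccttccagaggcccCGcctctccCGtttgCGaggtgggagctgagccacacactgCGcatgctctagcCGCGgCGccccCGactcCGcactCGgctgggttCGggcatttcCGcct
Phc1: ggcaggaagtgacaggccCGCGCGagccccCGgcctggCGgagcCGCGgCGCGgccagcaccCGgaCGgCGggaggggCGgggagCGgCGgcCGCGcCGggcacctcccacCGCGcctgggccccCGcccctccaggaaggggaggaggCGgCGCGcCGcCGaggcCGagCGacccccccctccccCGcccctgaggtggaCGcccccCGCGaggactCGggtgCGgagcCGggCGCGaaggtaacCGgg
Cbx6: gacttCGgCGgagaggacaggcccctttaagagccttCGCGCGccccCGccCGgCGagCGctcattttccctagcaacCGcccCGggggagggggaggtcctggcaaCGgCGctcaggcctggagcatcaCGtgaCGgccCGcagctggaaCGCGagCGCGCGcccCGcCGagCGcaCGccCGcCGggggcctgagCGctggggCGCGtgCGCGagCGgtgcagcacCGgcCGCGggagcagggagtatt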

How the data were processed

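Seh1 ChIP-seq of rat OPC and iOL was used, 1 library each. The submitters' processing notes list Bowtie2, HOMER, rn6 and hg18 with no version or role. Not given in the sources used here is the peak threshold. The authors deposited peak positions per library and 1 annotated table, made with annotatePeaks.pl of HOMER on rn6 per the file headers. Recorded under iOL, it holds the intervals of the OPC list (9084 of 9084; 0 of the iOL list) and was used for OPC; 33 OPC peaks lack annotation. Its deposited score per peak has no stated definition, and its deposited focus ratio is a fraction from 0 to 1.

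Genes were matched by Entrez ID to RefSeq GRCr8 names; all 59 listed genes matched. A gene counted as nameable when it had a row or an NM or NR accession numbered no higher than the table's highest; 3 listed genes with only newer accessions had rows, so 16 others are uncertain. Peaks were shared when they overlapped by 1 bp. Counting was checked on simulated intervals. No statistical test was run. The genes and lists were chosen with earlier results of these data known. All 9 genes, their peaks, the Ezh2 window and the listed genes with a peak within 50 kb of a TSS were named by rule; other listed genes were named after their values were seen, as were peaks inside transcripts. Python 3.11.15 and pandas 2.3.3 were used.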

Additional observations from a re-analysis of the deposited data

How the results depend on the processing

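Member genes with a peak stayed at 3, or at 2 with peaks within 50 kb or within 10 kb, which leave out Ezh2. Their 5 peaks fell to 3 within 50 kb and to 2 within 10 kb; scores above the median or no repeats left 5. The Ezh2 window held 4 OPC peaks at 250 kb to each side, 14 at 1000 kb and 3 with scores above the median, against 7. Its iOL peaks rose from 0 to 4 at 1000 kb, and shared peaks from 0 to 1. With an overlap of at least 50% of the OPC peak, or an iOL peak within 1 kb, shared peaks of the window and of the 9 genes stayed at 0. Listed genes with a peak fell from 20 to 12 within 50 kb, to 9 within 10 kb and to 10 with scores above the median, and stood at 19 without repeats. Counting peaks inside transcripts, added after seeing the data, gave 22 listed genes and 3 of the 9, and genes with an accession in range, also added, 17. Fewer or more peaks enter by construction. No paired analysis was possible because each stage has 1 library. Depth is unknown.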
